A study of Homo sapiens with 24 samples.

Results

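SPDEF, 5 mucin genes and the mucin-associated secretory genes AGR2 and TFF1 were followed through 2 human carcinoma cell lines treated with extracts of 3 herbs. The 8 genes were chosen by symbol, together with a minimum mean of more than 5 counts in the cell line described and a change with the herbs, mainly in A549 cells. All 8 had a row among the 14584 protein-coding genes of the deposited table. The minimum was passed by 7 of the 8 genes in A549 cells and by 4 of the 8 in Huh7 cells. Because the genes were chosen with their A549 response to the herbs in view, the A549 comparisons of each herb with control are given as a description. Their edgeR calls are counted beside the share of all genes and are not used as a test. The comparisons in Huh7 cells and between herbs were tested. The genes were chosen with earlier results of these data known, so these p-values are not independent of that choice either.

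Mucins are large, heavily O-glycosylated proteins of epithelial surfaces. The gel-forming mucins MUC5AC and MUC5B are secreted and are the main mucins of airway mucus, whereas MUC1, MUC13 and MUC16 span the cell membrane. SPDEF is an ETS family transcription factor known for driving the maturation of mucus-producing goblet cells in the airway and the intestine. AGR2 is an endoplasmic reticulum protein required for the folding of secreted mucins, and TFF1 is a small trefoil peptide that is secreted with mucus.

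A549 is a lung carcinoma line with wild-type p53 and Huh7 a hepatocellular carcinoma line with mutant p53, and the labels give both lines the genotype WT. The groups of each line were control cells and cells given an extract of Pulsatilla chinensis, of Bupleurum chinense or of Polyporus umbellatus (P. chinensis, B. chinense and P. umbellatus below). Each group had 3 libraries, which made 24 in all. The extracts were made in ethanol, dried and dissolved in DMSO. The dose and duration used for the sequenced cells, and whether the control cells received DMSO, are not given in the sources used here. Each line is a long-cultured tumour line grown as a monolayer, and neither is a differentiated mucus-secreting epithelium.

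The libraries held between 6803704 and 24345541 estimated counts, and the 4 highest totals were all of Huh7 control or P. chinensis cells. Values are given below as CPM (counts scaled to a common library size) after TMM normalization within a line. Replicates of a group differed by a median of 2.74 to 5.36 times the sampling variance, except for Huh7 P. umbellatus replicate 2, which differed from replicates 1 and 3 by 13.3 and 17.6 times. The keratins KRT8 and KRT18 were high in both lines. KRT7 had a median of 1678 CPM in A549 cells and at most 3 counts in any Huh7 library. All 8 hepatocyte markers were high in Huh7 cells, with a median of 3793 CPM for albumin. Of 6 alveolar markers only SFTPB had a row, at 2.70 CPM or less in A549 cells, and of 6 airway markers only FOXJ1 and TP63 had rows, so the lung origin of A549 was not visible in these markers. In bulk libraries fewer cells of a type and less RNA per cell cannot be told apart.

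Gene positions are those of GENCODE v44 on GRCh38. SPDEF (ENSG00000124664) lies on chromosome 6 from 34537802 to 34556333 on the minus strand. MUC5AC (ENSG00000215182, chromosome 11, 1157953 to 1201138) and MUC5B (ENSG00000117983, chromosome 11, 1223066 to 1262172) are neighbours on the plus strand. MUC13 (ENSG00000173702, chromosome 3, 124905442 to 124953819), MUC16 (ENSG00000181143, chromosome 19, 8848844 to 9010390), MUC1 (ENSG00000185499, chromosome 1, 155185824 to 155192916), AGR2 (ENSG00000106541, chromosome 7, 16791811 to 16833433) and TFF1 (ENSG00000160182, chromosome 21, 42362282 to 42366535) lie on the minus strand. The MUC5AC and MUC5B transcripts shared 127 distinct 31-base words, or 0.909% and 0.937% of those of each, so most of their sequence told the pair apart. MUC1 shared 18 words (1.01%) with another gene, and the other 5 genes shared none.

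RefSeq promoter windows (GRCh38.p14) were held for 5 of the 8 genes, namely SPDEF, AGR2, MUC1, MUC13 and MUC16. The 250 bases before the RefSeq start are shown for SPDEF, the gene with the lowest share of its control level after P. chinensis in A549 cells, for MUC13, which differed from control in opposite directions in the 2 lines, and for AGR2, which was abundant in both. Capitals mark a motif match. The windows are chr6:34556330-34556579 for SPDEF, chr3:124934752-124935001 for MUC13 and chr7:16805000-16805249 for AGR2, all read on the minus strand. The last bases of the SPDEF window reach into the annotated span of SPDEF, and the MUC13 and AGR2 windows lie inside the spans of their own genes.
SPDEF: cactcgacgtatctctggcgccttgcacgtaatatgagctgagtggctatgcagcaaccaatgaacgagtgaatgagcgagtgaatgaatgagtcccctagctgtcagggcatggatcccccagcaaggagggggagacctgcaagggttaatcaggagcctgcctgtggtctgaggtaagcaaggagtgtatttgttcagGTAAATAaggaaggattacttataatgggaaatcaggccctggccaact
MUC13: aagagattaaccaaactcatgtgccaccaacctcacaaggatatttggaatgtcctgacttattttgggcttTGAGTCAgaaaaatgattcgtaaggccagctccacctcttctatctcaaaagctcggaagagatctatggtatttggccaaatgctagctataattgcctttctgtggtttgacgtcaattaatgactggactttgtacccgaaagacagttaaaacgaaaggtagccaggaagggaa
AGR2: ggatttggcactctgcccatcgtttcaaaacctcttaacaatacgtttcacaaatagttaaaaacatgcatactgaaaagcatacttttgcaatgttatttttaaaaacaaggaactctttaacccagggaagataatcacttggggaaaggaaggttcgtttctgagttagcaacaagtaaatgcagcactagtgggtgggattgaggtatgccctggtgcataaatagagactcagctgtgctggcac
The motifs searched on both strands were the TATA box TATAAA, the forkhead motif TNTTTAC, the AP-1 motif TGANTCA, the SPDEF-type ETS motif CCGGAT, the motif of other ETS factors CCGGAA and the GC box GGGCGG. None of the motifs overlapped another in the windows printed. The forkhead motif was chosen after the SPDEF window had been seen. The SPDEF window held the forkhead motif in the reverse orientation, beginning 49 bases before the start, a motif present in 9.58% of 35116 promoter windows. The MUC13 window held the AP-1 motif beginning 178 bases before the start, which 6.57% of windows had. The AGR2 window held none of the 6 motifs. The MUC16 windows held AP-1 and GC box matches and the MUC1 windows a TATA box and GC boxes. The SPDEF-type ETS motif, present in 5.85% of windows, was found in none of the windows of these 5 genes. These are matches of letters and not measured binding sites.

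In control A549 cells the levels per kilobase of transcript were highest for AGR2, at 47.3 ± 5.76 CPM per kb (SD, n = 3). MUC5AC followed at 18.8 ± 0.563 CPM per kb and MUC5B at 12.4 ± 1.39 CPM per kb. MUC13 (8.03 ± 0.327 CPM per kb) and SPDEF (7.81 ± 0.561 CPM per kb) did not differ beyond their spread, and neither did MUC1 (0.907 ± 0.547) and TFF1 (0.633 ± 0.138). MUC16 was lowest at 0.0649 ± 0.0188 CPM per kb. The order in control Huh7 cells was AGR2 at 141.6 ± 4.46 CPM per kb, TFF1 at 5.46 ± 0.420, MUC13 at 1.44 ± 0.0487 and MUC1 at 0.295 ± 0.0640, with no overlap between neighbours. The gel-forming mucins, MUC16 and SPDEF were at or near the limit of detection in Huh7 cells. Levels of the 2 lines were normalized separately.

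The mean count that admitted a gene lay closest to its limit for MUC16 (13.5 counts) and MUC1 (16.5 counts) in A549 cells and for MUC1 (10.25 counts) in Huh7 cells. Just below it were TFF1 in A549 cells, with a mean of 3 counts, and SPDEF in Huh7 cells, with 1.75 counts.

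SPDEF was the most strongly affected of the 8 genes in A549 cells under P. chinensis. Its level was 14.6, 16.1 and 14.1 CPM in the 3 control libraries and 1.87, 1.70 and 1.57 CPM in the P. chinensis libraries. It was 2.98, 3.24 and 6.28 CPM after B. chinense and 5.03, 4.51 and 5.83 CPM after P. umbellatus. Every treated library was below every control library, and the P. chinensis libraries were also below all libraries of the other herbs. The values rest on 115 to 164 counts per control library and on 16 or 17 counts per P. chinensis library. The treated means were 11.5%, 27.9% and 34.3% of control for P. chinensis, B. chinense and P. umbellatus. The log2 fold changes were −2.99 ± 0.26 (SE), −1.82 ± 0.25 and −1.51 ± 0.24, which placed SPDEF 9th, 31st and 64th from the lowest among 13633 genes. B. chinense replicate 3 lay well above the other libraries of its group, and the log2 fold change for this herb ranged from −2.19 to −1.63 when single libraries were left out.

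**Figure D1:**
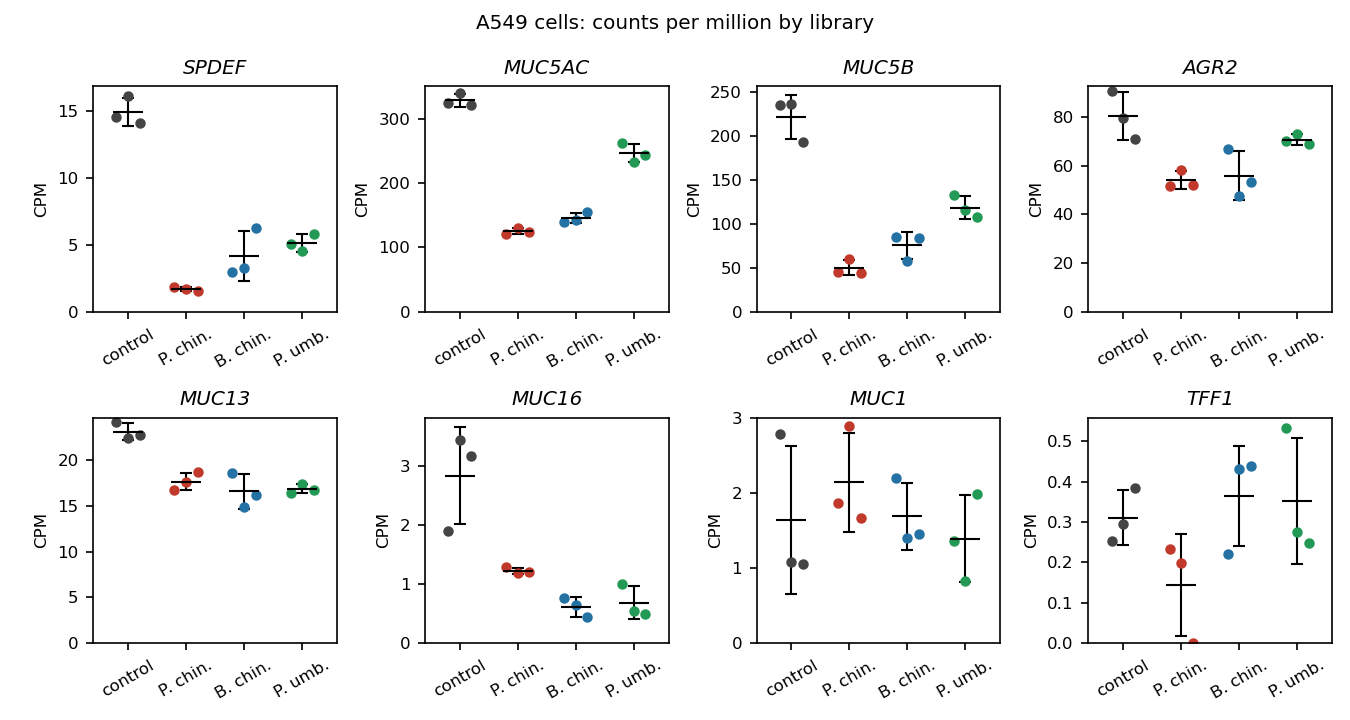
Level of each of the 8 genes in the 12 A549 libraries, in CPM on a linear axis starting at 0. Points are libraries, the long horizontal line is the group mean and the bars are the SD of 3 libraries. The SPDEF libraries lie between 14.1 and 16.1 CPM in control cells and between 1.57 and 1.87 CPM after P. chinensis, and the MUC1 groups overlap. TFF1 rests on 0 to 9 counts per library.

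The gel-forming mucins were lower with each herb, in the same order of herbs. MUC5B was at 235.8, 236.8 and 193.1 CPM in control libraries, 45.8, 60.2 and 44.4 CPM after P. chinensis, 85.1, 57.8 and 84.2 CPM after B. chinense and 132.6, 115.4 and 107.6 CPM after P. umbellatus. No treated library reached the control range, and the B. chinense range overlapped only that of P. chinensis. The log2 fold changes of MUC5B were −2.14 ± 0.15, −1.55 ± 0.14 and −0.90 ± 0.14. MUC5AC, the more abundant of the pair, was at 325.2, 339.9 and 321.3 CPM in control libraries, 120.6, 129.9 and 124.5 CPM after P. chinensis, 139.9, 142.1 and 155.2 CPM after B. chinense and 261.7, 233.4 and 244.0 CPM after P. umbellatus. The 4 groups of MUC5AC values did not overlap one another. Its log2 fold changes against control were −1.39 ± 0.056, −1.17 ± 0.056 and −0.41 ± 0.054. The MUC5AC mean after P. umbellatus was thus still 74.9% of control, whereas that of MUC5B was 53.4%.

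The membrane mucins did not share one pattern. MUC16, also known as CA125, was at 1.90, 3.44 and 3.18 CPM in control libraries, which corresponds to 15 to 35 counts. It was at 1.29, 1.20 and 1.20 CPM after P. chinensis, 0.772, 0.648 and 0.438 CPM after B. chinense and 1.01, 0.553 and 0.496 CPM after P. umbellatus. All treated libraries lay below the control range, and unlike SPDEF and the gel-forming mucins MUC16 had its highest treated mean under P. chinensis. Its log2 fold changes were −1.10 ± 0.35, −1.88 ± 0.37 and −1.74 ± 0.35, with large errors at these counts. MUC13 was at 24.2, 22.4 and 22.8 CPM in control libraries and between 14.9 and 18.7 CPM in the 9 treated libraries. The MUC13 groups of treated cells overlapped one another, and its log2 fold changes were −0.38 ± 0.11, −0.47 ± 0.11 and −0.45 ± 0.11. MUC1 ranged from 1.06 to 2.79 CPM in control cells and from 0.829 to 2.90 CPM in treated cells, with overlap throughout. The log2 fold changes of MUC1 were 0.37 ± 0.41, 0.07 ± 0.41 and −0.20 ± 0.42, and their 95% intervals reached from −1.10 to 1.26 over the 3 herbs, so a change of around 2-fold in either direction could not be seen at this depth.

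AGR2, the mucin-folding protein, was at 90.4, 79.5 and 71.0 CPM in control libraries, 51.6, 58.1 and 52.2 CPM after P. chinensis, 66.9, 47.6 and 53.2 CPM after B. chinense and 70.0, 73.0 and 68.7 CPM after P. umbellatus. The P. chinensis and B. chinense libraries lay below the control range, and the P. umbellatus libraries overlapped it. The log2 fold changes of AGR2 were −0.57 ± 0.11, −0.52 ± 0.11 and −0.18 ± 0.11. TFF1 had between 0 and 9 counts in the 12 A549 libraries. Its P. chinensis libraries, with 2, 2 and 0 counts, lay below the control libraries, with 2, 3 and 4 counts, on the CPM scale, which is at the limit of detection.

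By edgeR, 6, 6 and 5 of the 7 genes were below control at an adjusted p of less than 0.05 under P. chinensis, B. chinense and P. umbellatus. Over all genes tested, 17.1%, 15.0% and 14.8% were lower at the same threshold. The same 6, 6 and 5 genes had ranges wholly below the control range, as did 22.6%, 21.4% and 21.7% of all genes. The 7 genes had been selected for this response, so the counts describe the selection and nothing is read from them. The 3 comparisons also share their control libraries. The summed hepatocyte markers moved in the same direction in A549 cells, from 116.7 to 133.4 CPM in control cells to 49.6 to 51.9 CPM after P. chinensis, 51.4 to 56.9 CPM after B. chinense and 48.4 to 59.4 CPM after P. umbellatus. Nearly all of that sum was HNF4A, a transcription factor of liver and gut epithelium, while ALB and AFP had a median of 0 CPM and at most 7 counts in a library. The part of these markers in the result was not tested.

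**Figure D2:**
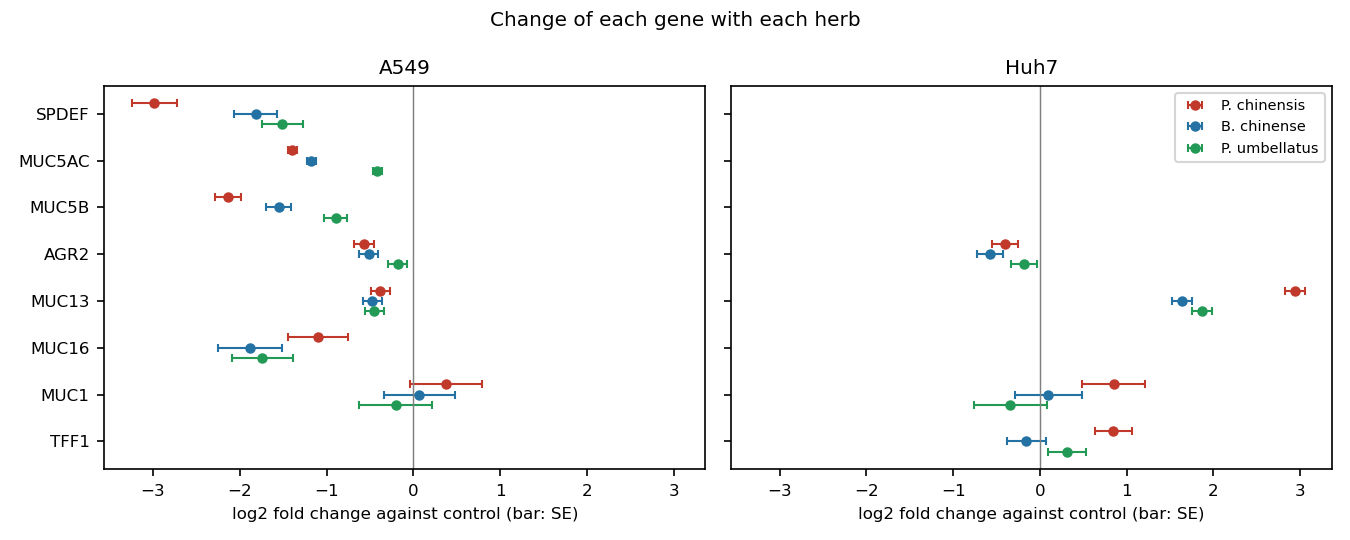
Log2 fold change of each gene against control with its standard error, for the 3 herbs in A549 cells (left) and Huh7 cells (right); genes with a mean of 5 counts or less in a line are not plotted. In A549 cells SPDEF lies between −2.99 and −1.51, and MUC13 lies between −0.47 and −0.38 there but between 1.64 and 2.94 in Huh7 cells.

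The herbs were next compared with each other in A549 cells, which asks whether the extracts lowered these genes to different degrees. Each of these contrasts is the difference between the control comparisons of the herbs concerned, which were in view when the genes were chosen. Their p-values and counts are therefore not independent of that choice. MUC5AC separated P. umbellatus from both other herbs and SPDEF and MUC5B separated it from P. chinensis. Between P. chinensis and P. umbellatus the log2 difference was −0.98 ± 0.056 for MUC5AC (edgeR adjusted p = 9.58e-07), −1.24 ± 0.15 for MUC5B (0.00114) and −1.47 ± 0.26 for SPDEF (0.00992). These 3 of 7 genes were lower under P. chinensis, against 2.19% of all genes that were lower and 3.01% called in either direction. The call of SPDEF was lost when P. chinensis replicate 3 was left out (−1.42, adjusted p = 0.0539). AGR2 did not pass the edgeR test (−0.39 ± 0.11, adjusted p = 0.0896) but was called by DESeq2 (0.0215), with only the 6 libraries compared (0.0380) and without B. chinense replicate 1 (0.0393). Also not called were MUC16, MUC1 and MUC13, with differences of 0.64 ± 0.35, 0.58 ± 0.41 and 0.07 ± 0.11. The 95% interval was narrow for MUC13 (−0.17 to 0.31) and wide for MUC16 (−0.11 to 1.40).

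Between B. chinense and P. umbellatus only MUC5AC passed, with a log2 difference of −0.76 ± 0.056 (edgeR adjusted p = 2.68e-05). It was 1 of just 7 genes called among the 13633 tested (0.0513%). MUC5B differed by −0.66 ± 0.14 (adjusted p = 0.237) and SPDEF by −0.30 ± 0.25 (adjusted p = 0.863, 95% interval −0.84 to 0.23). MUC16 differed by −0.14 ± 0.35 and MUC13 by −0.02 ± 0.11. DESeq2 called MUC5B as well, with an adjusted p of 0.0331.

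Between P. chinensis and B. chinense none of the 7 genes passed in edgeR, where 1.45% of all genes were called. SPDEF was closest, at −1.17 ± 0.27 (adjusted p = 0.0502), followed by MUC5AC at −0.22 ± 0.057 (0.0758) and MUC5B at −0.59 ± 0.15 (0.0767). These 3 genes had an unadjusted p below 0.05, and DESeq2 called the same 3 genes, with adjusted p of 0.0114 for SPDEF, 0.0167 for MUC5AC and 0.0318 for MUC5B. MUC16 had the opposite sign, at 0.78 ± 0.37 (edgeR adjusted p = 0.363). AGR2 (−0.05 ± 0.12), MUC13 (0.09 ± 0.11) and MUC1 (0.31 ± 0.42) were also not called.

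**Figure D3:**
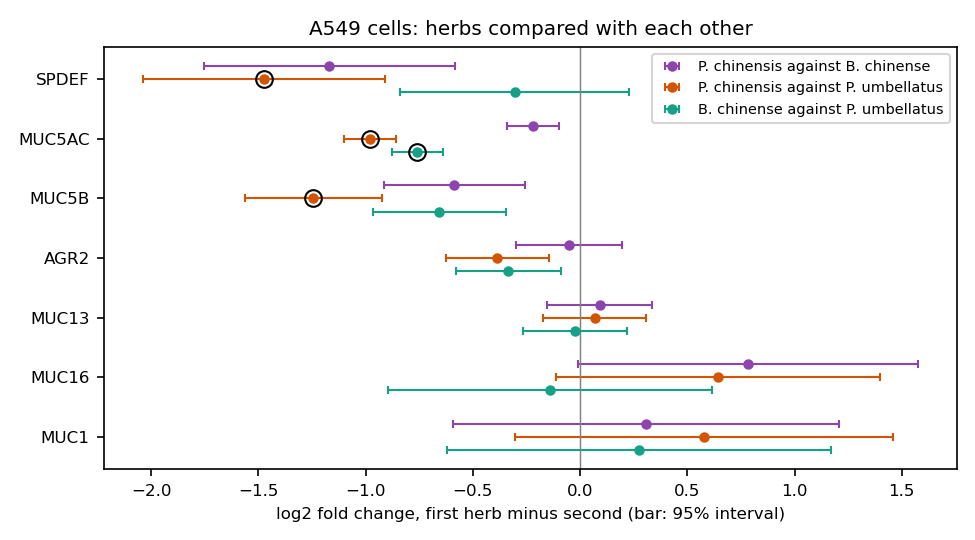
Log2 difference between herbs for the 7 genes tested in A549 cells, with 95% intervals, and circles around differences with an edgeR adjusted p below 0.05. MUC5AC is circled against P. umbellatus for both other herbs, and the MUC13 differences lie between −0.02 and 0.09.

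The response in Huh7 cells had another composition, since SPDEF, MUC5AC, MUC5B and MUC16 could not be tested there. SPDEF had 0 to 4 counts per library, MUC5AC and MUC16 at most 2 and MUC5B at most 1. MUC5AC and MUC5B were at 0 in all control libraries, which allows up to 3 counts, or 0.125 to 0.185 CPM by library, for counting error only.

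MUC13 rose strongly with each herb in Huh7 cells. It was at 4.11, 4.31 and 4.04 CPM in control libraries, 34.1, 33.9 and 29.9 CPM after P. chinensis, 13.7, 12.2 and 13.8 CPM after B. chinense and 14.5, 15.6 and 16.4 CPM after P. umbellatus. No treated library overlapped the control range, and the P. chinensis libraries were above all others. The increase was 7.85-fold for P. chinensis (log2 2.94 ± 0.12, edgeR adjusted p = 4.00e-08), 3.18-fold for B. chinense (1.64 ± 0.12, 4.13e-05) and 3.73-fold for P. umbellatus (1.87 ± 0.12, 5.34e-06). MUC13 ranked 15th, 26th and 18th from the highest of 13875 genes. In A549 cells, as described above, all 9 treated libraries were below the control range, so this gene lay on opposite sides of control in the 2 lines. The difference between the lines was not tested. Under P. chinensis the sum of the 8 hepatocyte markers was 13029 to 13866 CPM, against 20724 to 21178 CPM in control cells, and that of the 6 epithelial markers was 5433 to 5699 CPM, against 4085 to 4317 CPM. The hepatocyte sum was 18926 to 19524 CPM after B. chinense and 19360 to 24386 CPM after P. umbellatus, and the epithelial sum 4343 to 4572 CPM and 2546 to 3863 CPM. Single genes weighed heavily in both sums. Over the 12 Huh7 libraries the median was 10873 CPM for APOB, and 2872 and 1360 CPM for the epithelial keratins KRT8 and KRT18. The part of these markers in the Huh7 results was not tested.

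TFF1, which A549 cells hardly expressed, rose in Huh7 cells with P. chinensis. Its control libraries were at 2.61, 2.53 and 2.92 CPM and the P. chinensis libraries at 4.94, 4.54 and 5.41 CPM, with no overlap. The log2 fold change was 0.85 ± 0.21 (edgeR adjusted p = 0.0132). The call rested on few libraries, since the adjusted p was 0.0507, 0.0505 and 0.0551 without P. chinensis replicate 3, control replicate 1 or control replicate 2. TFF1 was at 2.50, 2.34 and 2.37 CPM after B. chinense (−0.15 ± 0.22, adjusted p = 0.864) and at 2.20, 3.89 and 4.02 CPM after P. umbellatus (0.31 ± 0.22, adjusted p = 0.292). Under P. umbellatus replicate 1 lay below the control range and the other libraries above it, and without replicate 1 the value was 0.54 and called (adjusted p = 0.0483).

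AGR2 was at 248.8, 237.9 and 234.3 CPM in Huh7 control libraries, 180.1, 175.8 and 190.0 CPM after P. chinensis and 162.9, 163.1 and 157.3 CPM after B. chinense. Both groups lay wholly below control. In A549 cells 22.6%, 21.4% and 21.7% of all genes did so with the 3 herbs, and the Huh7 share is not given here. Neither fall of AGR2 passed the test, with log2 fold changes of −0.40 ± 0.15 (edgeR adjusted p = 0.0786) and −0.58 ± 0.15 (0.0967). DESeq2 called both, with adjusted p of 0.0423 and 0.0144, as did edgeR on the 6 libraries of each comparison, with 4.11e-05 and 8.83e-05. After P. umbellatus AGR2 was at 148.6, 269.7 and 216.0 CPM, a range that covered the whole control range (−0.19 ± 0.15, adjusted p = 0.354). This spread entered the error of all 3 comparisons through the shared model. Without P. umbellatus replicate 2, the library that stood apart, the adjusted p was 0.0063 for P. chinensis and 0.00511 for B. chinense, and AGR2 was also called under P. umbellatus (−0.39, adjusted p = 0.0176). Without P. umbellatus replicate 1 the adjusted p was 0.00378 and 0.00474 for the first pair, and the P. umbellatus value was 0.01. The MUC13 values kept their calls without either library.

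MUC1 ranged from 0.401 to 0.616 CPM in Huh7 control cells and from 0.642 to 1.63 CPM after P. chinensis, on 8 to 24 counts. Its log2 fold changes were 0.85 ± 0.36 (edgeR adjusted p = 0.121), 0.10 ± 0.38 and −0.34 ± 0.42 for the 3 herbs. In all, 2, 1 and 1 of the 4 genes were called in Huh7 cells, against 20.9%, 1.28% and 37.0% of all genes. Each of these calls was an increase, against 10.5%, 0.519% and 19.3% of all genes.

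**Figure D4:**
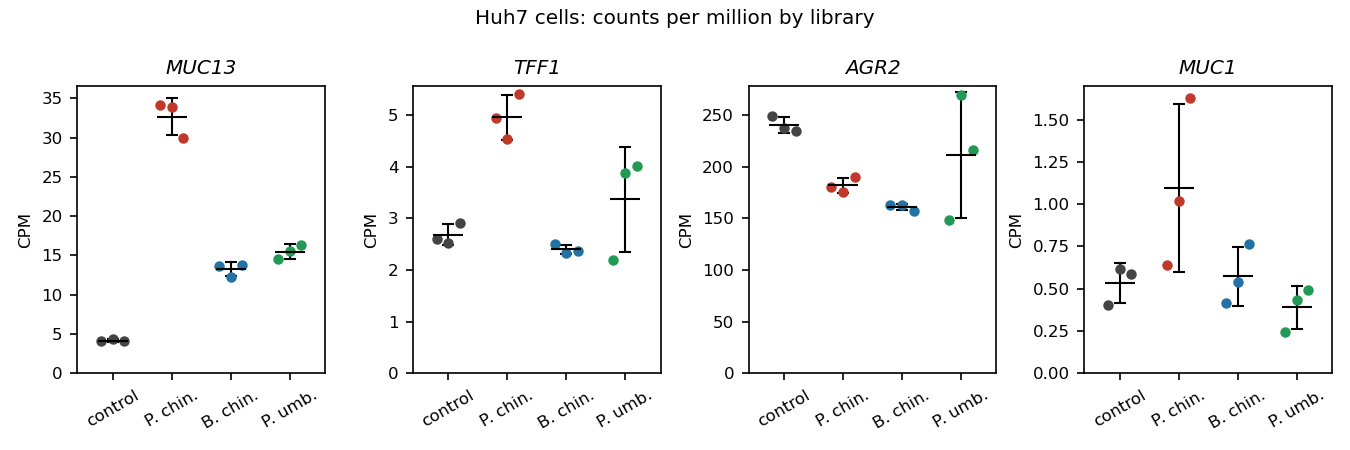
Level of the 4 genes tested in Huh7 cells in each of the 12 libraries, in CPM on linear axes starting at 0, with group means and SD bars of 3 libraries. MUC13 lies near 4 CPM in control cells and between 29.9 and 34.1 CPM after P. chinensis, and AGR2 after P. umbellatus spreads from 148.6 to 269.7 CPM.

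Genes related to mucins or to SPDEF were counted in 4 lists. These were 17 genes listed as other mucins, 37 goblet and secretory cell genes, 33 enzymes of mucin-type O-glycosylation and 27 other ETS family factors. Rows were held for 7, 22, 29 and 20 of them. None of the 5 genes of the other-mucin list tested in A549 cells was called by edgeR with any herb. They were CD164, MCAM, MUC3A, MUC20 and EMCN. MUC3A, MUC20 and EMCN averaged only 17.9, 10 and 8.33 counts, so moderate changes in them could be missed. At an unadjusted p below 0.05 there were 2, 0 and 0, and DESeq2 called 0 in each comparison. The 2 under P. chinensis were MUC3A (0.84 ± 0.33) and MCAM (0.46 ± 0.20), both above control. The median log2 values of the 5 genes were 0.22, 0.19 and 0.0080. Over all genes, 32.8%, 28.1% and 28.2% were called with the 3 herbs in that order, and 15.8%, 13.1% and 13.4% were called higher.

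Of 19 goblet and secretory cell genes tested in A549 cells, 2 rose and 5 fell under P. chinensis, 3 rose and 2 fell under B. chinense, and 4 rose and 3 fell under P. umbellatus. The shares called were 36.8%, 26.3% and 36.8%, beside 32.8%, 28.1% and 28.2% of all genes. The medians of the list on the log2 scale were −0.13, −0.14 and −0.17, beside 0.014, −0.0018 and −0.012 over all genes. FOXA2, a forkhead factor of airway and liver epithelium, fell by 0.62 ± 0.10 on the log2 scale under P. chinensis (edgeR adjusted p = 0.000358) and was not called under B. chinense (−0.22 ± 0.10, 0.145) or P. umbellatus (−0.19 ± 0.10, 0.188). XBP1, a factor of the unfolded protein response that secretory cells require, fell with every herb, by 0.54 ± 0.081 (0.000137), 0.66 ± 0.082 (3.28e-05) and 0.39 ± 0.080 (0.00226). KLF4, a differentiation factor of epithelia and goblet cells, rose with every herb, by 0.72 ± 0.21 (0.0179), 0.89 ± 0.21 (0.00579) and 0.87 ± 0.21 (0.00634).

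The enzymes of O-glycosylation attach and extend the sugar chains of mucins. Of 26 tested, 6 rose and 3 fell under P. chinensis, 5 rose and 2 fell under B. chinense and 11 rose and 1 fell under P. umbellatus, with medians of 0.10, 0.044 and 0.21. The shares called were 34.6%, 26.9% and 46.2%, beside 32.8%, 28.1% and 28.2% of all genes. GALNT5, an enzyme that adds the first sugar, rose with every herb, by 1.14 ± 0.17 (edgeR adjusted p = 0.000113), 0.88 ± 0.17 (0.00145) and 1.09 ± 0.17 (0.000201). GALNT12, of the same enzyme family, rose by 1.05 ± 0.27 under P. chinensis (0.00837) and by 0.78 ± 0.27 under P. umbellatus (0.0460), and stood at 0.53 ± 0.28 under B. chinense (0.180).

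Of 20 other ETS factors, the family of SPDEF, 3 rose and 7 fell under P. chinensis, 2 rose and 3 fell under B. chinense and 2 rose and 2 fell under P. umbellatus. The shares called were 50%, 25% and 20%, beside 32.8%, 28.1% and 28.2% of all genes. The medians were −0.13, −0.036 and −0.050. ETS2, a widely expressed activator that responds to growth factor signalling, fell by 0.67 ± 0.063 (edgeR adjusted p = 1.37e-06), 0.90 ± 0.064 (1.74e-07) and 0.82 ± 0.063 (3.08e-07). ERF, a repressor of the family, fell by 0.47 ± 0.078 (0.000316), 0.37 ± 0.078 (0.00259) and 0.46 ± 0.077 (0.000404). Over the 4 lists together, 26, 17 and 23 of 70 genes were called, or 37.1%, 24.3% and 32.9%, beside the 32.8%, 28.1% and 28.2% of all genes.

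**Figure D5:**
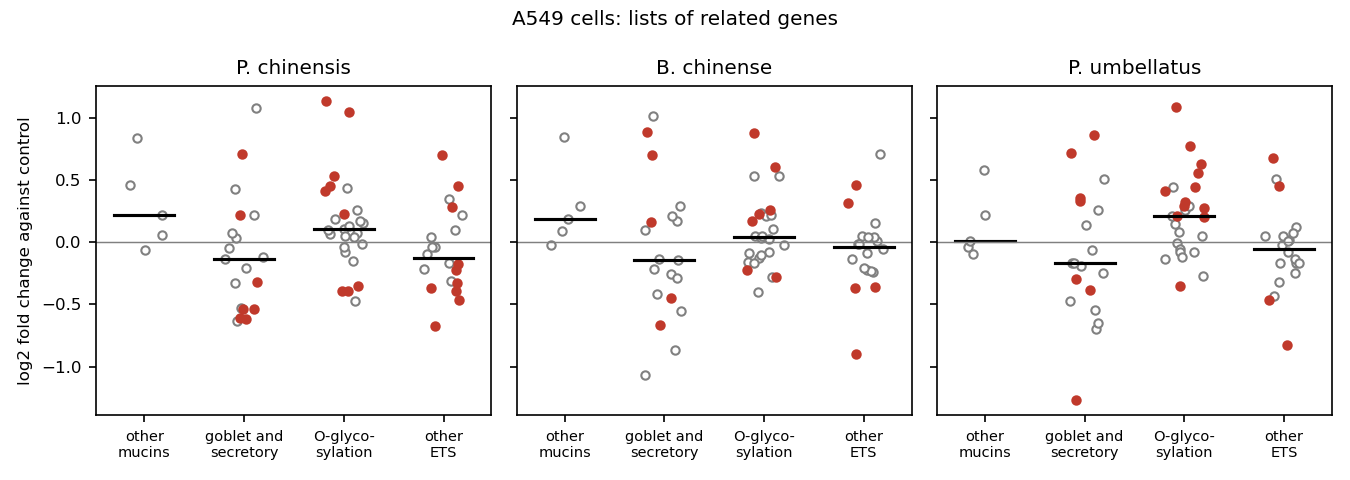
Log2 fold change against control of each tested gene of the 4 lists in A549 cells, by herb. Filled red points have an edgeR adjusted p below 0.05, open points do not, and the horizontal lines are list medians, such as 0.21 for the O-glycosylation enzymes under P. umbellatus.

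In Huh7 cells 74 genes of the lists were tested. Under P. chinensis 9 rose and 9 fell, under B. chinense 0 rose and 1 fell, and under P. umbellatus 12 rose and 14 fell. Over all genes 10.5%, 0.519% and 19.3% rose and 10.5%, 0.757% and 17.8% fell. The totals of 18, 1 and 26 were unstable, since over the alternatives and single libraries left out they ran from 12 to 34, from 0 to 6 and from 8 to 29. The P. chinensis total was 34, and the P. umbellatus total 8, with only the 6 libraries compared, and without control replicate 3 the totals were 12 and 15. Of 7 genes of the other-mucin list, edgeR called 0, 0 and 2 with the 3 herbs. The pair called under P. umbellatus rose, a share of 28.6% where 37.0% of all genes were called and 19.3% were called higher. At an unadjusted p below 0.05 there were 0, 1 and 3, and DESeq2 called 0, 0 and 2. Under B. chinense none of the 26 O-glycosylation enzymes and none of the 20 ETS factors was called by edgeR. With this herb 1.28% of all genes were called, so 0 calls in lists of this size lie near that share. The enzymes and ETS factors at an unadjusted p below 0.05 numbered 5 and 3, and DESeq2 called 0 and 1.

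The genes whose log2 level followed SPDEF most closely over the 12 A549 libraries were H4C13, a replication-dependent histone H4 gene (Pearson r = 0.990), KPNB1, the nuclear import receptor importin beta (0.987), TK1, the cytosolic thymidine kinase (0.985), MCMBP, a binding partner of the MCM helicase proteins (0.979), and the zinc finger gene ZNF367 (0.976). They were ranked among 10860 genes whose mean reached 50 counts. Over all these genes the median r was 0.0455 and the 5th to 95th percentiles ran from −0.832 to 0.885. Among the mucin genes MUC5B had an r of 0.946 (rank 112 on the same scale) and MUC5AC of 0.915, followed by AGR2 at 0.747, MUC13 at 0.667, MUC16 at 0.493 and MUC1 at −0.322. Within the 9 treated libraries H4C13, KPNB1, TK1, MCMBP and ZNF367 stood at 0.970, 0.964, 0.972, 0.933 and 0.921. MUC5B and MUC5AC were at 0.837 and 0.782 there and AGR2 at 0.474, whereas MUC13 was at −0.443, MUC1 at −0.492 and MUC16 at −0.845. The 12 libraries fall into 4 groups and differ in depth, so r can follow the group means or the depth. The values describe likeness of pattern over these libraries, and no p is given.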

How the data were processed

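RNA of A549 and Huh7 cells was sequenced in 24 libraries after removal of ribosomal RNA. The authors estimated counts with kallisto against GRCh38.p13 transcripts and removed genes that do not code for protein or average 5 counts or fewer. The deposited values are expected counts per gene, given as whole numbers and not normalized for library size. How transcripts were summed and rounded is not given in the sources used here. The 8 genes and the 4 lists were chosen with earlier results of these data known, and of the lists the 2 largest rises and the 2 largest falls per herb in A549 are named, among called genes averaging 50 counts or more.

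In R 4.3.3, genes averaging more than 5 counts in the line (13633 in A549, 13875 in Huh7) were normalized by TMM and fitted with the quasi-likelihood model of edgeR 4.0.16 (prior count 2), 1 coefficient per group. Tests were two-sided and adjusted by the Benjamini-Hochberg method over all genes tested. Standard errors and 95% intervals came from the quasi-likelihood F and its degrees of freedom. Nothing says that replicates were separate cultures, so p-values measure the spread between these libraries only. Alternatives were DESeq2 1.42.0, other normalizations and filters, 6 libraries per fit, a replicate block and leaving out each replicate. The scripts were tested on simulated data. Motifs were searched in RefSeq promoter windows with Python 3.11.15.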

Additional observations from a re-analysis of the deposited data

Results flagged for a closer look

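MUC13 differed from control in opposite directions in the 2 lines with every herb, each library of one line moving against each library of the other. Subtracting the Huh7 value from the A549 value, the log2 fold changes differed by −3.32 for P. chinensis (−0.38 against 2.94), −2.11 for B. chinense (−0.47 against 1.64) and −2.32 for P. umbellatus (−0.45 against 1.87). The difference between the lines was not tested.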

How the results depend on the processing

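Under all alternatives run, the log2 fold changes of SPDEF, MUC5AC and MUC5B in A549 cells and of MUC13 in Huh7 cells against control kept their sign and their call. The A549 genes had been chosen for this response, so whether their calls against control were kept or lost is description only. Between P. chinensis and B. chinense in A549, the count of genes called was 0 in the fit reported, 3 with DESeq2, and 1 (SPDEF) with RLE normalization, with no filter on low counts and with filterByExpr. It was 2 in place of 1 with DESeq2 between B. chinense and P. umbellatus. In Huh7 DESeq2 and the fit on 6 libraries each added AGR2, giving 3 in place of 2 for P. chinensis and 2 in place of 1 for B. chinense. Between P. chinensis and P. umbellatus in A549 the fit on 6 libraries also added AGR2, giving 4 in place of 3, and DESeq2 called AGR2, MUC5B and MUC5AC. The list genes called in Huh7 were 34 in place of 18 (P. chinensis), 6 in place of 1 (B. chinense) and 8 in place of 26 (P. umbellatus) with 6 libraries per fit, and 2 for B. chinense with DESeq2. Adjusted p of DESeq2 was NA for SPDEF between P. chinensis and P. umbellatus. The cause of these shifts was not tested.

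Leaving out each library in turn gave 4 to 6 called genes for P. chinensis in A549 (MUC16 was lost without each P. chinensis replicate in turn, without control replicate 2 or 3, and with DESeq2, and MUC13 without P. chinensis replicate 1 or control replicate 1), 0 to 1 between P. chinensis and B. chinense, 2 to 4 between P. chinensis and P. umbellatus, and 1 to 3, 1 to 2 and 1 to 2 for the 3 herbs in Huh7. List counts ran from 19 to 27, 13 to 17 and 18 to 24 in A549 and from 12 to 27, 0 to 5 and 15 to 28 in Huh7. The B. chinense count was 0 without B. chinense replicate 2 or 3 or any control replicate and 5 without P. umbellatus replicate 2, and the P. umbellatus count was 16 and 15 without control replicates 2 and 3.

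Signs turned, never in a called value, when single libraries were left out. MUC1 in A549 ran from −0.15 (without B. chinense replicate 1 or control replicate 3) to 0.58 under B. chinense, also −0.14 without control replicate 2, and from −0.46 to 0.30 (without control replicate 1) under P. umbellatus, also 0.024 without P. umbellatus replicate 2. Between P. chinensis and B. chinense AGR2 ran from −0.16 to 0.10 (without B. chinense replicate 1). Between B. chinense and P. umbellatus the highest values were 0.051 for MUC13 (without B. chinense replicate 2, also 0.00097 without P. umbellatus replicate 2), the lowest being −0.12, and 0.19 for MUC16 (without P. umbellatus replicate 1), the lowest being −0.28. In Huh7 MUC1 ran from −0.12 (without B. chinense replicate 3) to 0.24 under B. chinense, also −0.039 without control replicate 1, and AGR2 from −0.39 to 0.013 (without P. umbellatus replicate 1) under P. umbellatus.

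Libraries with the same replicate number showed no shared deviation (r of −0.062 to 0.052 in A549 and −0.032 to 0.036 in Huh7). Whether libraries of the same number were cultured or handled together cannot be told from these values. With the number as a replicate block, called genes stayed at 6, 6 and 5 in A549 and 2, 1 and 1 in Huh7, and no call changed, SPDEF under P. chinensis being at −2.99. Counts of 16 or 17 for SPDEF and below 40 for MUC16 and MUC1 limit the precision in A549.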
